A study of Homo sapiens with 8 samples.

Results

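The proteasome genes described here are the 47 measured genes whose symbol is PSMA, PSMB, PSMC, PSMD, PSME, PSMF or PSMG followed by a number, out of 17467 genes present in all 3 deposited tables. They were taken by symbol and sorted by role, with earlier results of these data known. The sorting gave 8 subunits of the 20S alpha ring, 7 constitutive subunits of the 20S beta ring, 3 immunoproteasome subunits, 6 ATPases of the 19S particle, 11 other 19S subunits, 7 assembly chaperones, and 5 activators and inhibitors. The thymic catalytic subunit PSMB11 is not among the rows analysed here. RNA was sequenced from SUDHL6, an established human diffuse large B-cell lymphoma line. The cells received vehicle (DMSO) or 2.5 µM of MS8815, EPZ-6438 or MS8815N for 18 h, with 2 libraries in each of the 4 groups. The labels call MS8815 a PROTAC against EZH2, the methyltransferase of polycomb repressive complex 2, EPZ-6438 the inhibitor matched to it that acts on the enzyme's SET domain, and MS8815N an analog that is not a PROTAC. The labels do not say that the duplicates are separate cultures, and each p-value therefore rests on a spread between libraries that could be technical alone.

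The proteasome is the protease that breaks down proteins tagged with ubiquitin. Its barrel, the 20S core, has outer alpha rings that gate the entrance and inner beta rings that hold the active sites, and the 19S particle on its end binds, unfolds and feeds in the substrate. A PROTAC links its target to a ubiquitin ligase, so that the target is handed to this machine. Cells of the immune system and cells exposed to interferon-gamma can exchange the catalytic subunits PSMB5, PSMB6 and PSMB7 for PSMB8, PSMB9 and PSMB10, in that order. The resulting immunoproteasome favours peptides that fit MHC class I molecules, and PSME1 and PSME2 form the PA28 cap that often accompanies it. Subunit genes are known to be raised together by the transcription factor NFE2L1 when proteasome activity falls short.

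Stretches upstream of PSMB9 and of the members with interferon response element letters are shown because the immunoproteasome subunits gave different responses to the compounds. Apart from PSMB9, members were taken by these letters alone, and no interferon was given. PSMB9 lies head to head with TAP1, the peptide transporter gene, and the first sequence is the 169 bases of the PSMB9 upstream window that carry no annotated exon of either gene (GRCh38, chr6:32853979-32854147, plus strand), 213 to 45 bases before the RefSeq start of PSMB9. The GENCODE span of PSMB9 begins further upstream and includes this stretch. Its capitals mark letters of the antioxidant response element TGACNNNGC, read on the opposite strand. The next lines are the 30 bases around each match to the letters of the interferon-stimulated response element (GAAA, any 2 bases, GAAA), in capitals, on the strand of the gene, for PSMB10 (chr16:67936852-67936881, minus strand), PSME2 (chr14:24146619-24146648, minus strand), PSMG4 (chr6:3258904-3258933, plus strand), PSMB4 (chr1:151399495-151399524, plus strand) and PSMA4 (chr15:78540155-78540184, plus strand). All come from RefSeq on GRCh38. The stretches of PSMB10, PSME2 and PSMG4 also lie within the GENCODE span of their gene.
PSMB9: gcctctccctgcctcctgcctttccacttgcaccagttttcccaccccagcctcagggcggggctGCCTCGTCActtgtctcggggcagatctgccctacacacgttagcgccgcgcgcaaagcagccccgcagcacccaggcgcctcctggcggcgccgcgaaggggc
PSMB10: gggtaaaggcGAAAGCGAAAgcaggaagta
PSME2: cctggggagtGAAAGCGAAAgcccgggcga
PSMG4: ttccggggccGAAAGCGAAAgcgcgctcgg
PSMB4: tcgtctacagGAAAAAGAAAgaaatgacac
PSMA4: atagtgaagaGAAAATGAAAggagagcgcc

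Promoter windows of 250 bases before the first listed RefSeq start were found for 41 of the 47 genes, and motif letters were searched on both strands. The response element letters, GAAA repeated after 2 bases, were present in 5 of the 41 windows (12.2%), against 3.07% of 27305 promoters. The windows of PSMB8 and PSMB9 were not among these 5. Members with the letters had a median log2 fold change of -0.25 with MS8815 as deposited, and those without 0.22. That median is the value of PSMB10, which was not called, and the members were split. PSMB4 (0.74) and PSMA4 (0.41) were higher, and PSME2 (-0.33) and PSMG4 (-0.46) lower. PSMB10, PSME2 and PSMG4 carried the identical letters GAAAGCGAAA, beginning 21, 28 and 33 bases before the start. TGACNNNGC was present in 11 of 41 windows (26.8%, against 11.0% of all promoters), among them those of PSMB9, PSMG1, PSME1 and PSME2. The letters TTCNNNGAA, the core of the gamma-activated sequence, were in 5 windows (12.2%, against 6.78%), CCAAT in 17 (41.5%, against 33.0%), and the heat-shock element letters (GAA, TTC and GAA, each 2 bases apart) in 0 (against 0.439%). Median log2 fold changes with MS8815, with and without the letters, were -0.01 and 0.25 for TGACNNNGC. They were 0.12 and 0.22 for TTCNNNGAA, and 0.21 and 0.21 for CCAAT. The interferon and antioxidant matches in PSME2 do not overlap, the latter beginning 175 bases before the start. A match describes letters in this window and says nothing of binding.

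All 47 genes were detected in every group, and 46 of them were in the upper 50% of genes by level, PSMB9 being the exception. In the DMSO libraries, levels were compared as normalised read count per kb of transcript. The length was that of the longest principal transcript in GENCODE, such as 4411 bases for PSMA4 and 998 for PSME3. The order of the members depends on that choice. PSMA7, an alpha-ring subunit, was highest at 11025 per kb, followed by PSME3, which forms the nuclear PA28-gamma cap, at 9630, and PSMB4 at 7555. The constitutive beta subunits had a median of 5573 per kb, the alpha subunits 3482, the other 19S subunits 2807, the 19S ATPases 2599, the activators and inhibitor 2047 and the assembly chaperones 1162.
Each immunoproteasome gene lay below the constitutive gene it replaces. PSMB10 reached 1051 per kb, PSMB8 274 and PSMB9 62.5, the lowest level of the 47 genes. Their constitutive counterparts PSMB7, PSMB5 and PSMB6 stood at 5573, 3125 and 4658 per kb. Both DMSO libraries gave this order for each of the 3 pairs, with 1011 and 1091 per kb for PSMB10, 250.1 and 298.8 for PSMB8, and 57.0 and 68.1 for PSMB9. Next above PSMB9 and PSMB8 came PSMA8, an alpha subunit known from the testis, at 453.1 per kb, and PSMD5, a chaperone of the 19S base, at 526.6. Per kb, 5 more members (PSME4, PSMG3, PSMD12, PSMA4 and PSMG4) lay between PSMD5 and PSMB10. Before division by length, PSMA4 lay above PSMB10, at 2716 and 2710 against 790.7 and 858.7 in DMSO of the MS8815 table.

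**Figure D1:**
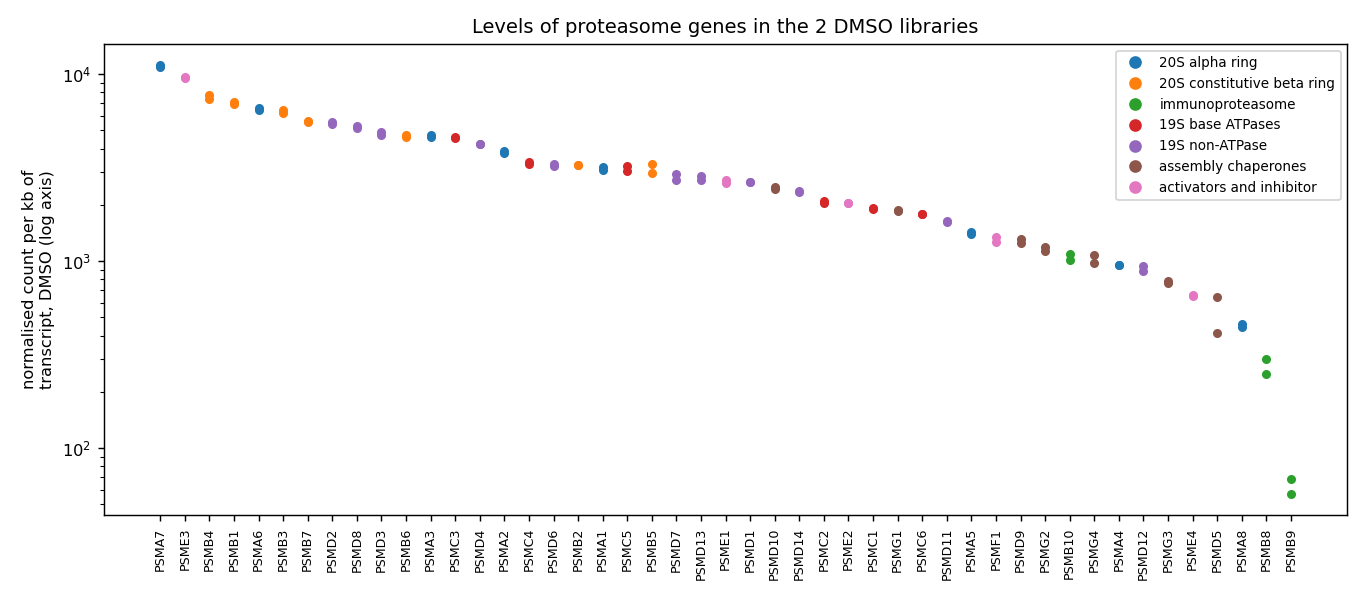
Normalised read count per kb of transcript (log axis) for each of the 47 proteasome genes in the 2 DMSO libraries, ordered by mean, with 1 point per library and the colour giving the role. PSMA7 is highest at 11025 per kb and PSMB9 lowest at 62.5, and PSMD5 shows the wide gap between the libraries that the text describes.

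The libraries labelled MS8815 stood apart from the others before any proteasome gene was considered. Of 23 measured B-cell markers, 21 were called lower and 1 (CIITA) higher with MS8815, and their summed normalised count was 75042 to 76358 against 155817 to 157024 in DMSO. Of 31 measured markers of adherent cells (epithelial cells and fibroblasts), 28 were called higher and 0 lower. Their summed count was 57578 to 59325 against 4404 to 4764, and no marker was at 0 in both libraries of a group. Among T-cell and NK-cell markers 0 of 3, and among myeloid markers 2 of 4, were called higher. With EPZ-6438 and MS8815N, 0 of 23 B-cell markers were called, and 0 and 1 of 28 adherent-cell markers, whose summed counts were 7954 to 8078 against 6339 to 6861 in DMSO with EPZ-6438 and 8726 to 9338 against 6753 to 7308 with MS8815N. The estimated depth was 13.0 and 14.6 M reads for MS8815 against 26.0 to 34.1 M reads for the other libraries, and the median difference between replicates was 0.14 (log2) against 0.07 to 0.08. The part of these differences in the results below was not tested. Because both MS8815 libraries share them, no comparison with MS8815 can be made without them. In bulk RNA, fewer cells of a type and less RNA per cell cannot be told apart.

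With MS8815, most subunits of the proteasome itself were higher than in DMSO, while the genes that help to assemble or cap it were lower or not called. Of the 47 genes, 28 were called higher and 9 lower (limma on the deposited values, Benjamini-Hochberg adjusted p under 0.05), and 10 were not called. Without DMSO replicate 1 the counts were 17 higher and 2 lower, and without DMSO replicate 2 they were 19 and 3. The share of all genes called without those libraries was not counted, so these falls cannot be read as particular to the members. With all libraries the median log2 fold change of the members was 0.26. It was -0.00 for all 18744 genes tested and -0.20 for the upper 50% of genes by level. In this comparison 46.9% of all genes were called, 24.5% higher and 22.4% lower, and among the upper 50% by level 16.8% higher and 41.4% lower. The groups did not overlap in 31 genes that were higher and 13 that were lower, against 37.9% and 35.9% of all genes. The split between higher and lower depends on how the libraries are scaled. After quantile normalisation it was 31 to 5, and with the libraries scaled to the B-cell markers 47 to 0, where the median of all genes itself moved to -0.20 and 1.11, respectively. Of all 18744 genes, 14330 were called higher and 102 lower with scaling to the B-cell markers, and 3704 higher and 5257 lower after quantile normalisation.

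**Figure D2:**
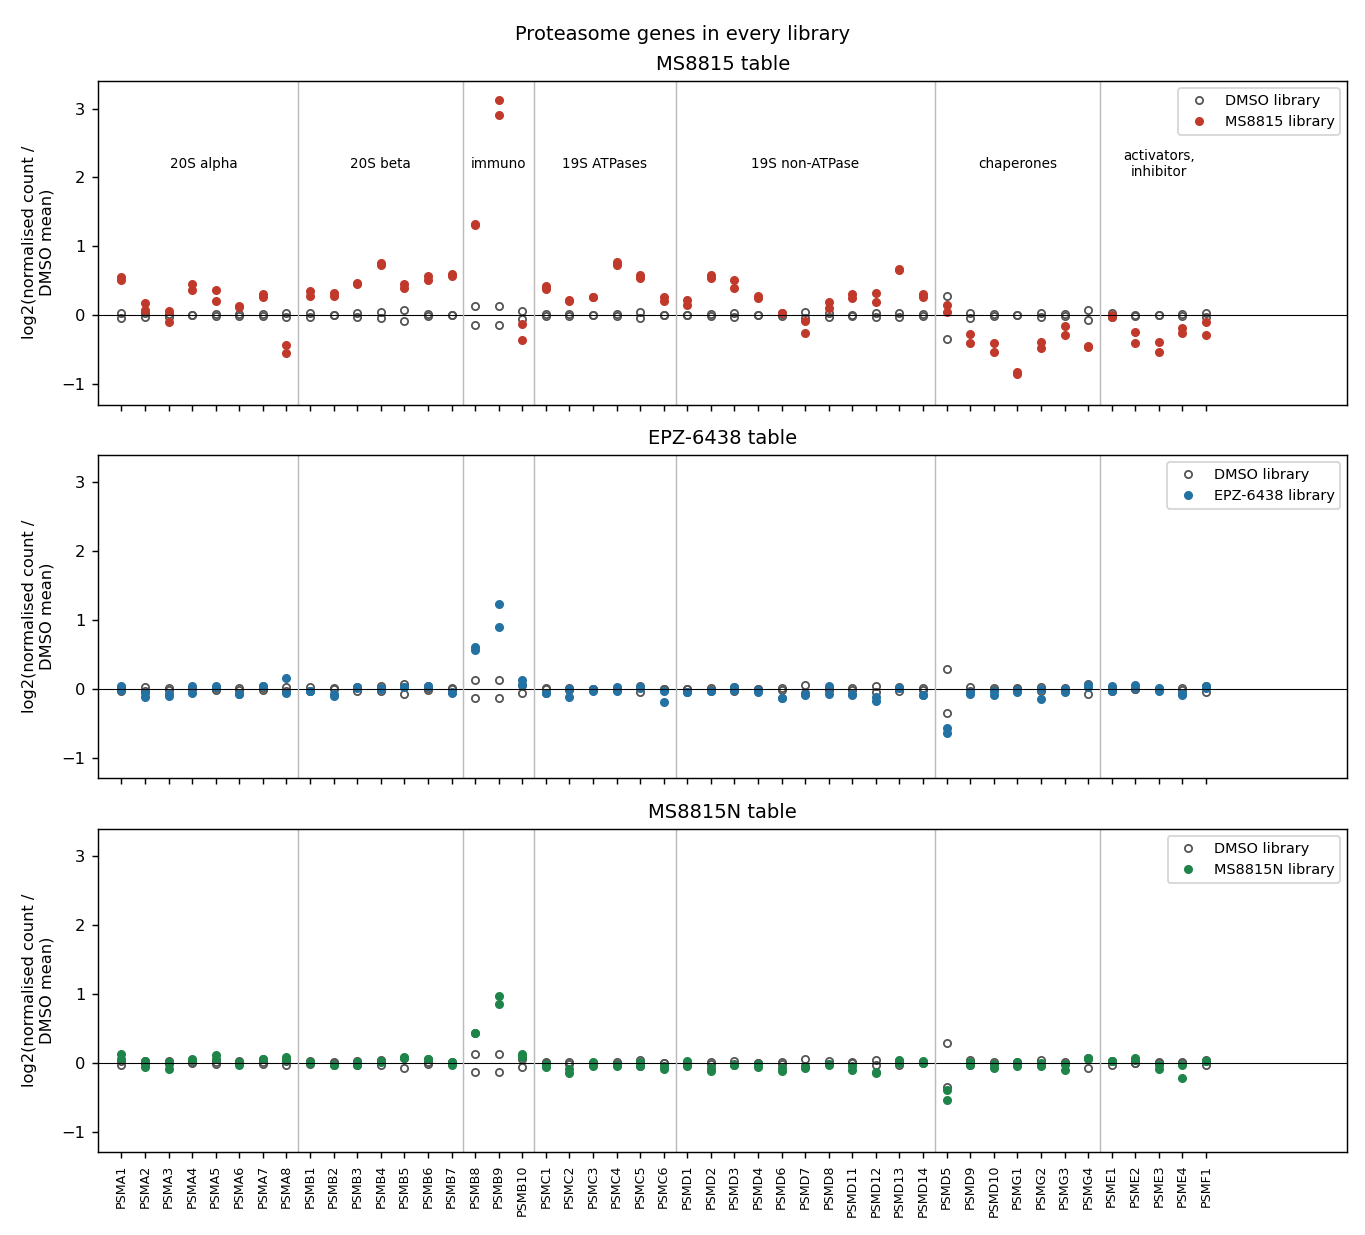
Log2 of the normalised count divided by the DMSO mean for the 47 proteasome genes, with open points for the 2 DMSO libraries and filled points for the 2 libraries of the compound, in 1 panel per table. With MS8815 the beta subunits and 19S ATPases sit above 0 and the chaperones mostly below, on the scaling as deposited (scaled to B-cell markers, all 47 genes are above 0), and PSMB8 and PSMB9 are the highest points in all 3 panels.

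All 7 constitutive beta subunits were called higher with MS8815, as deposited and after quantile normalisation. With scaling to the B-cell markers, where 14330 of 18744 genes were called higher, their median was 1.60 against 1.11 for all genes. As deposited, the largest difference was in PSMB4 (chr1:151399534-151401944), a structural subunit of the ring. It had normalised counts of 4530 and 4787 in DMSO and 7832 and 7741 with MS8815. Its log2 fold change was 0.74 (SE 0.04, adjusted p = 8.02e-05), and both MS8815 libraries lay above both DMSO libraries.
The 3 catalytic subunits moved by similar amounts. PSMB5, the chymotrypsin-like site, had counts of 2439 and 2732 in DMSO and 3520 and 3381 with MS8815 (log2 fold change 0.42, SE 0.07, adjusted p = 0.00369). PSMB6, the caspase-like site, had 2498 and 2560 against 3614 and 3755 (0.54, SE 0.05, adjusted p = 0.000425). PSMB7, the trypsin-like site, had 3506 and 3489 against 5313 and 5166 (0.58, SE 0.04, adjusted p = 0.000184). In each of the 3 the groups were separate. The PSMB5 call did not hold without DMSO replicate 1 (adjusted p = 0.0527) or without MS8815 replicate 1 (0.0521). The remaining ring members PSMB1, PSMB2 and PSMB3 had log2 fold changes of 0.31, 0.30 and 0.45.

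In the alpha ring 5 of 8 genes were called higher and 1 lower as deposited. PSMA1 (chr11:14504874-14643635) differed most among those that were higher, with counts of 2978 and 3129 in DMSO and 4483 and 4334 with MS8815. Its log2 fold change was 0.53 (SE 0.05, adjusted p = 0.000448). PSMA4, PSMA5, PSMA7 and PSMA6 followed at 0.41, 0.28, 0.28 and 0.12, while PSMA2 (0.12, adjusted p = 0.118) and PSMA3 (-0.02, adjusted p = 0.826) were not called.
PSMA8 was the only 20S gene called lower. Its counts were 529.6 and 510.6 in DMSO and 356.0 and 386.4 with MS8815 (log2 fold change -0.49, SE 0.11, adjusted p = 0.0137). The groups were separate, but the call did not hold without DMSO replicate 1 (adjusted p = 0.159) or 2 (0.130), and scaling to the B-cell markers turned the value to 0.65.

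The immunoproteasome genes did not move as a block. PSMB9 and PSMB8, neighbours in the MHC region of chromosome 6, were called higher with MS8815, as deposited and after quantile normalisation. With scaling to the B-cell markers all 47 members were called higher, as were 14330 of 18744 genes. PSMB10 on chromosome 16 was not called as deposited.
PSMB9 (chr6:32844136-32859585, ENSG00000240065.7) had normalised counts of 26.0 and 31.3 in DMSO and 250.5 and 215.7 with MS8815. Its log2 fold change was 2.98 (SE 0.24, adjusted p = 0.00028), the largest of the 47 genes, from the lowest starting level. After quantile normalisation it was 1.94. PSMB8 (chr6:32840717-32844703, ENSG00000204264.9) had 180.6 and 217.0 against 499.0 and 492.1, a log2 fold change of 1.32 (SE 0.14, adjusted p = 0.000686). In both genes every MS8815 library lay above every DMSO library.
PSMB10 (chr16:67934502-67937087, ENSG00000205220.11) had counts of 790.7 and 858.7 in DMSO and 639.1 and 751.4 with MS8815. The groups did not overlap, with a log2 fold change of -0.25 (SE 0.11, adjusted p = 0.118). It passed the threshold in the joined fit of all 8 libraries (adjusted p = 0.0451), and the sign turned to 0.89 with scaling to the B-cell markers.
The annotated spans of PSMB8 and PSMB9 overlap on opposite strands, and the antisense gene PSMB8-AS1 was measured too, at 20.8 and 39.6 in DMSO against 60.0 and 59.8 with MS8815 (log2 fold change 1.03, adjusted p = 0.0696). Whether the counting used strand is not given in the sources used here, so reads of overlapping genes cannot be told apart.

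Ratios of each inducible subunit to the constitutive subunit it replaces do not move with a constant factor per library, such as the scaling to B-cell markers. They do move with quantile normalisation, which changes differences between genes within a library. They are ratios of normalised counts without correction for length, so only their change is read. PSMB9 was 1.04% and 1.22% of PSMB6 in DMSO and 6.93% and 5.74% with MS8815, a log2 change of 2.44 (SE 0.17). PSMB8 was 7.40% and 7.94% of PSMB5 in DMSO and 14.2% and 14.6% with MS8815 (0.90, SE 0.05). PSMB10 went the other way, from 22.6% and 24.6% of PSMB7 to 12.0% and 14.5% (-0.83, SE 0.15). As deposited the larger part of this was the rise of PSMB7 (log2 fold change 0.58), while PSMB10 itself had -0.25 and was not called. With scaling to the B-cell markers PSMB10 turned positive, so this division between the genes depends on the scaling. After quantile normalisation the log2 changes were 1.15 for PSMB9/PSMB6, 0.26 for PSMB8/PSMB5 and -1.12 for PSMB10/PSMB7, with the same signs. For each ratio the 2 groups were separate, and the exact permutation test gave p = 0.333, the smallest that 2 libraries against 2 allow.

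**Figure D3:**
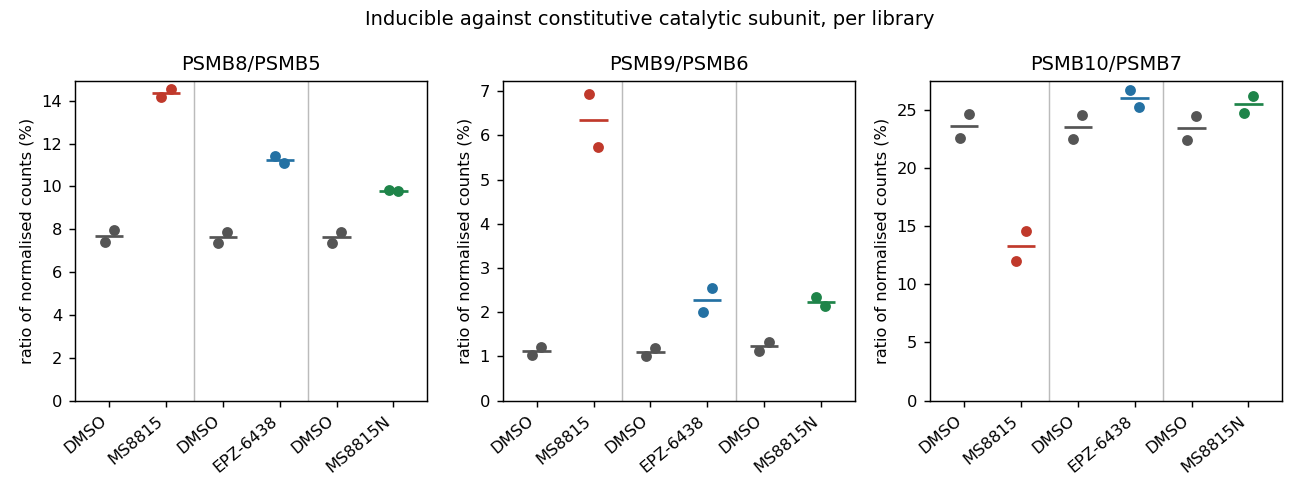
Ratio of each immunoproteasome gene to the constitutive gene it replaces, in percent of normalised counts, per library (points) with the group mean (line), each compound beside the DMSO values of its own table. PSMB8/PSMB5 and PSMB9/PSMB6 are lowest in DMSO and highest with MS8815, and PSMB10/PSMB7 is lowest with MS8815, on the scaling as deposited (after quantile normalisation the PSMB8/PSMB5 change with MS8815 is 0.26).

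All 6 ATPases of the 19S base, the ring that unfolds substrates, were called higher with MS8815, as deposited and after quantile normalisation. With scaling to the B-cell markers, where 14330 of 18744 genes were called higher, their median was 1.47 against 1.11 for all genes. PSMC4 (chr19:39971005-39981441) had counts of 3436 and 3378 in DMSO and 5646 and 5840 with MS8815. Its log2 fold change was 0.75 (SE 0.04, adjusted p = 8.62e-05), the largest of the constitutive members. PSMC5, PSMC1, PSMC3, PSMC6 and PSMC2 had values of 0.56, 0.39, 0.26, 0.23 and 0.21.
Of the other 19S subunits, 8 of 11 were called higher and 0 lower, and 10 of 11 were called higher after quantile normalisation. PSMD13 (chr11:236546-252984), a lid subunit, had 3471 and 3640 against 5572 and 5628 (log2 fold change 0.66, SE 0.05, adjusted p = 0.000141). PSMD2 (chr3:184298709-184309054), the scaffold of the base, had counts of 11760 and 12046 in DMSO and 17214 and 17906 with MS8815 (0.56, SE 0.03, adjusted p = 0.000111). The ubiquitin receptor PSMD4 and the deubiquitinase PSMD14 had values of 0.26 and 0.29, and PSMD3, PSMD11, PSMD12 and PSMD1 had 0.45, 0.28, 0.26 and 0.18. PSMD8 (0.15, adjusted p = 0.0538), PSMD6 (0.03, 0.608) and PSMD7 (-0.18, 0.106) were not called.

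The assembly chaperones, which guide subunits into place and then leave, had the lowest class median with MS8815. As deposited 5 of 7 were called lower and 0 higher, with a median of -0.43. Lower calls made up 22.4% of all genes and 41.4% of the upper 50% by level, whose median was -0.20. After quantile normalisation 4 of 7 were lower, beside 5257 of 18744 genes. The class median was then -0.27, near the -0.20 of all genes. With scaling to the B-cell markers 7 of 7 were called higher, beside 14330 of 18744 genes (median 0.71, below the 1.11 of all genes). PSMG1 (chr21:39174769-39183851), which pairs with PSMG2 to build the alpha ring, had counts of 2585 and 2576 in DMSO and 1449 and 1418 with MS8815. Its log2 fold change was -0.85 (SE 0.06, adjusted p = 0.000129), the most negative of the 47 genes, and it became 0.29 when scaled to the B-cell markers. Its partner PSMG2 had -0.43, PSMG4 -0.46, and the base chaperones PSMD10 and PSMD9 -0.47 and -0.34. PSMG3 was not called (-0.22, adjusted p = 0.104).
PSMD5 was the member with the largest gap between DMSO libraries, 1166 and 752.6, and its MS8815 counts of 988.6 and 1060 lay between them (log2 fold change 0.13, SE 0.20, adjusted p = 0.685).

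Among the activators and the inhibitor, 3 of 5 were called lower as deposited, beside 22.4% of all genes and 41.4% of the upper 50% by level. The class median of -0.22 was near the -0.20 of that upper 50%. After quantile normalisation 0 were called in either direction. With scaling to the B-cell markers 5 of 5 were called higher, beside 14330 of 18744 genes. PSME3 (chr17:42824385-42843758) had counts of 6087 and 6083 in DMSO and 4189 and 4649 with MS8815 (log2 fold change -0.46, SE 0.06, adjusted p = 0.00123). After quantile normalisation its value was -0.13 (adjusted p = 0.106). The PA28 partners PSME1 (chr14:24136158-24138967) and PSME2 (chr14:24143362-24147570) are neighbours on chromosome 14. PSME1 had 1671 and 1752 against 1719 and 1679 (-0.01, SE 0.06, adjusted p = 0.904), with overlapping groups.
PSME2 had 1802 and 1820 against 1527 and 1366 (-0.33, SE 0.08, adjusted p = 0.0139), with groups apart. That call did not hold without DMSO replicate 1 (adjusted p = 0.130) or 2 (0.140). PSME4, which forms the PA200 cap, had -0.22 (adjusted p = 0.0129) and the inhibitor PSMF1 -0.20 (adjusted p = 0.0769).

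The difference between core and chaperones was also present within each library, where a constant factor per library has no effect. The mean log2 level of PSMG1 to PSMG4 was set against the mean of the 14 constitutive 20S core subunits (PSMA1 to PSMA7 and PSMB1 to PSMB7). Relative to the DMSO mean it was -0.81 and -0.89 in the MS8815 libraries, 0.01 and -0.01 in DMSO, -0.02 and 0.02 with EPZ-6438, and -0.05 and -0.02 with MS8815N. Only the MS8815 libraries stood away from DMSO by more than 0.05 on this measure. After quantile normalisation the mean difference was -1.12 with MS8815, -0.03 with EPZ-6438 and -0.06 with MS8815N.
The same contrast for PSME1 and PSME2 gave -0.47 and -0.59 with MS8815, against values from -0.00 to 0.05 in the other 6 libraries. The 19S ATPases stayed near the core in all libraries, at 0.05 and 0.03 with MS8815 and at -0.08 to 0.01 elsewhere, and the other 19S subunits were at -0.06 and -0.13 with MS8815. The base chaperones PSMD5, PSMD9 and PSMD10 gave -0.56 and -0.63 with MS8815, but also -0.15 to -0.24 with the other compounds and 0.12 and -0.12 in the DMSO libraries, which differ in PSMD5. After quantile normalisation the mean differences with MS8815 were -0.64 for PSME1 and PSME2, 0.05 for the ATPases, -0.10 for the other 19S subunits and -0.71 for the base chaperones.

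**Figure D4:**
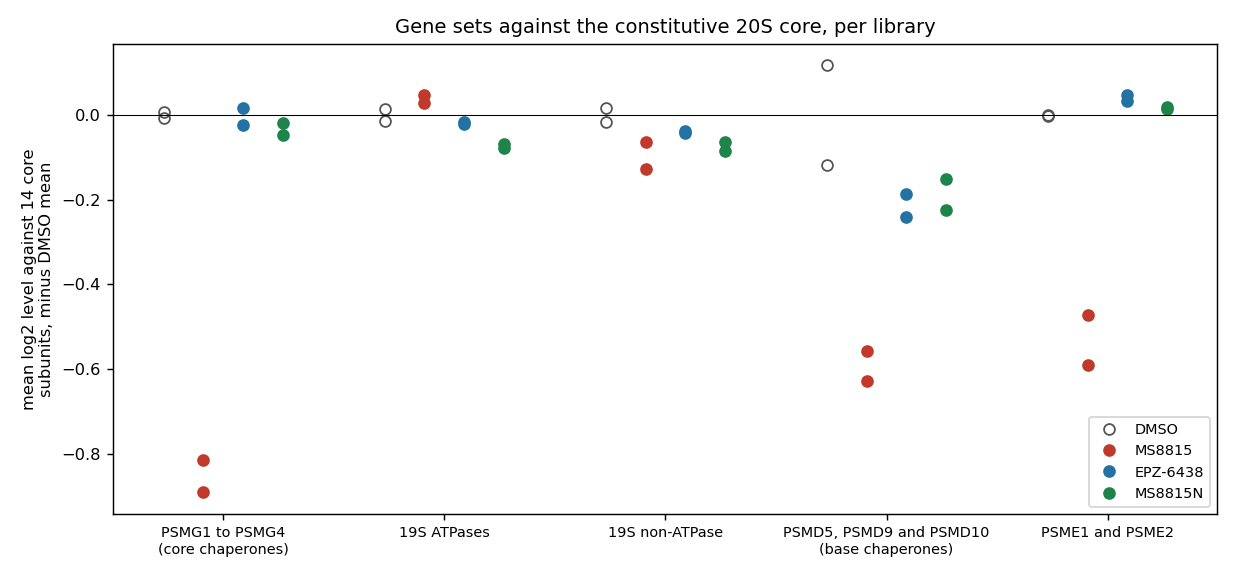
Mean log2 level of 5 sets of proteasome genes against the mean of the 14 constitutive core subunits in the same library, minus the DMSO mean, with 1 point per library. PSMG1 to PSMG4 lie at -0.81 and -0.89 with MS8815 and within 0.05 of 0 in the other libraries, while the 19S ATPases lie between -0.08 and 0.05 in all 8.

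**Figure D5:**
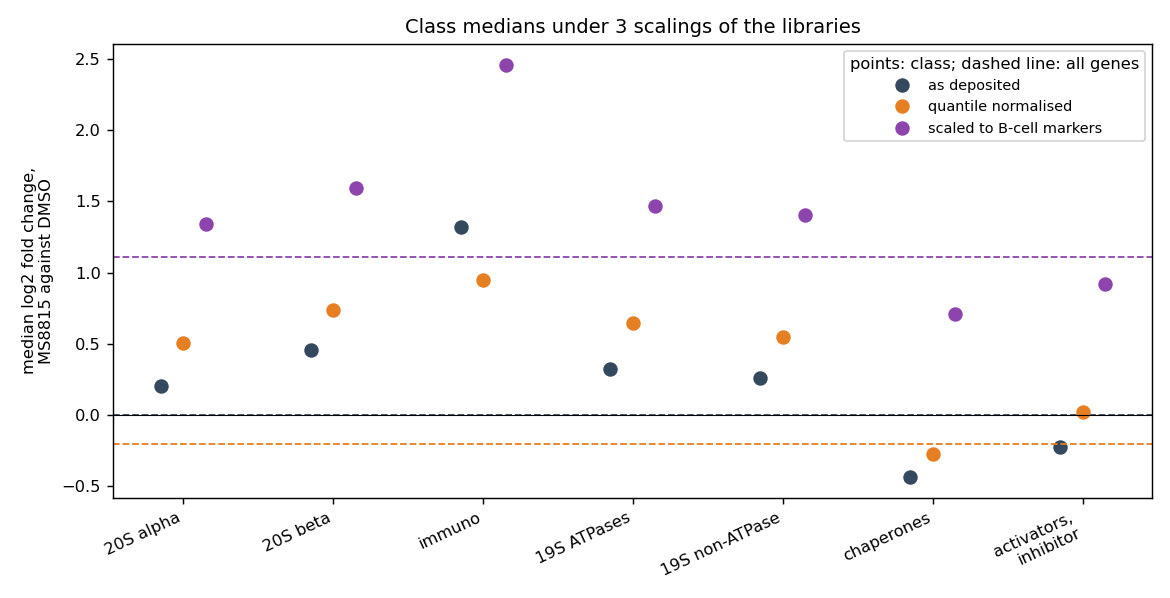
Median log2 fold change of each class, MS8815 against DMSO, under 3 scalings of the libraries (points), with the median of all genes under the same scaling (dashed lines). The constitutive beta ring is above the all-gene line and the chaperones below it in each scaling. After quantile normalisation the chaperones are near the line (-0.27 against -0.20). Their own median changes sign, from -0.43 as deposited to 0.71 with scaling to B-cell markers.

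With EPZ-6438, 0 of 47 proteasome genes were called (limma, background 0.0328% of 18320 genes), and the median log2 fold change was -0.02, against 0.01 for all genes. The groups were apart in 7 genes that were higher and 21 that were lower, against 24.3% and 23.8% of all genes. At an unadjusted p under 0.05 there were 10 members, out of 3076 genes. With MS8815N, 0 of 47 were called as well (background 0.533% of 18398 genes), with a median of -0.01 against 0.00 for all genes and 6 members, out of 2894 genes, at an unadjusted p under 0.05. The groups were apart in 10 genes that were higher and 18 that were lower, against 23.5% and 23.2% of all genes. Both compounds were compared with the same 2 DMSO libraries, so their values are given side by side only. The DMSO counts of a gene differ between tables by a factor for that gene and a factor for the library, so each compound is read against DMSO in its own table.

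PSMB8 and PSMB9 had the smallest p-values of the 47 genes with EPZ-6438, and PSMB9 the smallest with MS8815N, followed by PSMD2 and PSMB8. PSMB8 had counts of 265.6 and 317.2 in DMSO and 446.1 and 429.4 with EPZ-6438, a log2 fold change of 0.59 (SE 0.12, adjusted p = 0.105). In the MS8815N table it had 281.1 and 335.8 against 415.6 and 417.9 (0.44, SE 0.12, adjusted p = 0.158). The libraries of both compounds lay above DMSO, and neither difference passed the threshold.
PSMB9 had 37.6 and 44.9 in DMSO against 76.6 and 97.4 with EPZ-6438 (1.05, SE 0.25, adjusted p = 0.129). In the MS8815N table it had 44.6 and 53.2 against 95.9 and 88.1 (0.90, SE 0.23, adjusted p = 0.133). Here too the groups were separate and the differences were not called.
PSMB10 had 1163 and 1255 against 1325 and 1263 with EPZ-6438 (0.10, adjusted p = 0.523) and 1231 and 1329 against 1360 and 1399 with MS8815N (0.11, adjusted p = 0.486). PSMB8 was 11.4% and 11.1% of PSMB5 with EPZ-6438 against 7.35% and 7.89% in DMSO of that table, and 9.81% and 9.77% with MS8815N against 7.35% and 7.88%. PSMB9 was 1.99% and 2.54% of PSMB6 with EPZ-6438 against 1.02% and 1.19% in DMSO of that table, and 2.33% and 2.15% with MS8815N against 1.13% and 1.33%. The log2 changes of the 3 ratios were 0.56, 1.01 and 0.14 with EPZ-6438 and 0.36, 0.85 and 0.12 with MS8815N for PSMB8, PSMB9 and PSMB10, in that order, each with an exact permutation p of 0.333.

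The constitutive members varied little with these compounds. PSMD2 had the second smallest p with MS8815N, at counts of 18731 and 19069 in DMSO and 17900 and 17464 with the compound (-0.10, SE 0.02, adjusted p = 0.143). With EPZ-6438 its value was -0.03 (adjusted p = 0.572). The beta ring ranged from -0.09 to 0.04 with EPZ-6438 and from -0.03 to 0.08 with MS8815N, the ATPases from -0.11 to 0.02 and from -0.13 to -0.01, and the alpha ring from -0.09 to 0.05 and from -0.04 to 0.09. PSMG1 had -0.03 and -0.02, PSME3 -0.01 and -0.06, PSME1 0.01 and 0.03, and PSME2 0.04 and 0.05. The most negative value in both tables was that of PSMD5, -0.57 (adjusted p = 0.225) and -0.44 (adjusted p = 0.341), where DMSO replicate 1 stood above all other libraries (2209 against 1417 in DMSO replicate 2 and 1242 and 1374 with MS8815N).

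The compounds were also compared with each other, in 3 pairs at the same dose and time, after the tables were joined through the shared DMSO libraries. The variance of a gene was shared by all libraries, although replicates differed more with MS8815, so intervals and p-values of pairs with MS8815 can be too small. MS8815 differed from its analog MS8815N in 42 members, 32 higher and 10 lower (background 50.6% of 17467 genes, 24.2% higher and 26.3% lower), and from EPZ-6438 in 42, again 32 higher and 10 lower (background 50.6%, 24.2% and 26.3%). With scaling to the B-cell markers the members called lower fell to 0 in both pairs. Of all 17467 genes, 171 were then called lower in each pair, and 13576 and 13653 higher.
PSMB9 was higher with MS8815 than with MS8815N by 2.10 on the log2 scale (95% interval 1.61 to 2.59, adjusted p = 7.91e-05) and than with EPZ-6438 by 1.94 (1.45 to 2.44, adjusted p = 0.000121). PSMB8 was higher by 0.88 (0.62 to 1.14, adjusted p = 0.000298) and 0.73 (0.47 to 0.99, adjusted p = 0.000862). PSMB10 was called lower than with either compound on the scaling as deposited, by -0.36 (-0.57 to -0.15, adjusted p = 0.0102) and -0.35 (-0.55 to -0.14, adjusted p = 0.0118).
PSMC4 was higher by 0.79 and 0.75 and PSMG1 lower by -0.83 and -0.81, the latter as deposited. The chaperones counted 5 lower and 1 higher in both pairs, the latter being PSMD5.

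MS8815N, the non-PROTAC analog, and EPZ-6438 did not differ in any member past the threshold (0 of 47, background 0.172% of 17467 genes). The smallest adjusted p was 0.733, and 2 members had an unadjusted p under 0.05, out of 1070 genes. The 95% interval extended by a median of 0.11 to either side of the difference over the members. Its width also draws on the spread of the MS8815 libraries, because the variance was shared by all libraries. For PSMB9 the difference was -0.15 (-0.65 to 0.34), for PSMB8 -0.15 (-0.41 to 0.11), for PSMB10 0.01 (-0.20 to 0.22), for PSMC4 -0.04 (-0.13 to 0.05) and for PSMG1 0.01 (-0.09 to 0.11). The intervals for PSMB9 and PSMB8 still allow differences of that width.

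Genes around the proteasome were read from 3 lists, chosen with earlier results of these data known and described by their counts. Of 28 measured genes that bind, regulate or supply the proteasome, 9 were called higher and 12 lower with MS8815, with a median of -0.17. Of all genes 24.5% were called higher and 22.4% lower (median -0.00). In the upper 50% by level the shares were 16.8% and 41.4% (median -0.20). The split of the list became 13 to 3 after quantile normalisation. With scaling to the B-cell markers it was 28 to 0, where 14330 of 18744 genes were called higher. NFE2L1, the factor that drives subunit genes, had counts of 3028 and 2803 in DMSO and 4841 and 4636 with MS8815 (log2 fold change 0.70, SE 0.06, adjusted p = 0.000254). The ubiquitin ligase SYVN1 had 6300.0 and 6138 against 3781 and 3832 (-0.71, adjusted p = 8.48e-05), the proteasome-bound deubiquitinase UCHL5 -0.74 (adjusted p = 0.000345) and the shuttle factor UBQLN2 -0.54 (adjusted p = 0.000269).
NFE2L1 was higher as deposited and after quantile normalisation (0.98). With scaling to the B-cell markers it had 1.84, against a median of 1.11 for all genes. The other 3 turned positive with that scaling (SYVN1 0.43, UCHL5 0.40, UBQLN2 0.60). With EPZ-6438 and with MS8815N 0 of 28 were called, and NFE2L1 had values of -0.04 and 0.21.

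Of 16 genes of the interferon-gamma pathway and of peptide supply to MHC class I, 7 were called higher and 3 lower with MS8815, beside 24.5% and 22.4% of all genes, with a median of 0.22. The counts were 7 and 4 after quantile normalisation and 15 and 0 with scaling to the B-cell markers (14330 of 18744 genes higher). TAP1, whose exon borders the stretch printed above for PSMB9, had counts of 54.1 and 75.3 in DMSO and 501.8 and 524.4 with MS8815 (log2 fold change 2.99, SE 0.21, adjusted p = 9.36e-05). NLRC5, the activator of MHC class I genes, had 7.20 and 9.47 against 110.1 and 106.1 (3.56, SE 0.35, adjusted p = 0.000446). The chaperones of peptide loading PDIA3 and CALR had -0.77 (adjusted p = 6.01e-05) and -0.48 (adjusted p = 9.36e-05), and 0.37 and 0.66 with scaling to the B-cell markers.
TAP1 and PSMB9 thus had fold changes of nearly equal size as deposited. After quantile normalisation TAP1 had 2.36, and PSMB9 fell to the lower value given above. With EPZ-6438 TAP1 had 80.1 and 110.8 against 217.4 and 130.1 (0.83, adjusted p = 0.237), and with MS8815N 85.1 and 117.8 against 156.4 and 167.5 (0.69, adjusted p = 0.174). Neither was called, nor was any other gene of this list with those compounds.

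Of 12 genes induced when proteins misfold, 10 were called higher and 2 lower with MS8815, beside 24.5% and 22.4% of all genes, with a median of 2.09. With scaling to the B-cell markers the counts were 11 and 0 (14330 of 18744 genes higher). HSPA6, an inducible HSP70, had counts of 3.29 and 3.24 in DMSO and 857.8 and 861.8 with MS8815 (log2 fold change 7.66, SE 0.25, adjusted p = 9.62e-06). HSPA1B rose from 2173 and 2276 to 11985 and 11498 (5.28-fold, adjusted p = 4.41e-06), though its reads can be split with the nearly identical HSPA1A. SQSTM1, the autophagy receptor p62, had 3266 and 3113 against 13014 and 12765 (2.01, adjusted p = 4.41e-06).
HSPA8, the constitutive HSP70, was lower as deposited at -0.83 (adjusted p = 1.36e-05), and at 0.31 with scaling to the B-cell markers. With EPZ-6438 and MS8815N 0 of 12 were called, and HSPA6 stayed between 0.96 and 6.79 normalised counts. These lists and the 47 genes were measured in the MS8815 libraries that also carried more adherent-cell transcripts and fewer B-cell transcripts, whose part in the result was not tested.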

How the data were processed

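The authors deposited 3 tables, one per compound, of log2-type values, named in the files as variance-stabilised by DESeq2, with the same 2 DMSO libraries in each. STAR 2.4.2 and Salmon are listed with the build GRCh38, per the submitters' processing notes; how they were combined is not given in the sources used here. The labels name either of 2 library kits without saying which library used which. The transform was inverted to normalised counts in closed form, and tables were joined over 17467 genes through the DMSO libraries, whose values in any pair of tables were related by a gene factor and a library factor (largest deviation 7.0e-11, log2).

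Each compound was tested against DMSO within its table on the deposited values, using limma 3.58.1 under R 4.3.3 with an intensity trend in the variance prior (2 residual degrees of freedom), two-sided, with Benjamini-Hochberg adjustment over all genes and a threshold of 0.05. Fold changes and SEs came from limma on log2(normalised count + 1), which understates changes of low genes. Pairs of compounds used the joined values (4 residual degrees of freedom, 95% intervals). The script was tested on simulated data. Depth was estimated from the steps between low values; 45.8% to 65.6% of them were whole multiples within 0.02, so no count test was run. Positions and lengths are from GENCODE on GRCh38, and the upstream windows from RefSeq (GRCh38.p14).

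Members with values in every library were PSMB5 to PSMB10, PSME1, PSME2, the largest rise and fall among called members of each class, and the 2 smallest p-values with EPZ-6438 and MS8815N; from each list the 4 smallest p-values were named, and PSMD5 was added after its values were seen. The members and lists were chosen with earlier results of these data known. Alternatives were quantile normalisation, scaling to B-cell markers, removal of the lower 50% of genes, limma without trend, the log2 scale, pseudocounts of 0.1 and 5, a replicate block, the joined fit and leaving out each library. Quantile normalisation of the ratios and of the sets against the core was added after seeing the data.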

Additional observations from a re-analysis of the deposited data

How the results depend on the processing

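With MS8815 against DMSO, 28 members were called higher and 9 lower. Scaling to the B-cell markers gave 47 and 0, and quantile normalisation gave 5 lower. Leaving out 1 library gave 17 to 27 higher and 2 to 9 lower, with 17 and 2 without DMSO replicate 1, and 19 and 3 without DMSO replicate 2; with 1 library left in a group, its spread is assumed to be that of the others. The share of all genes called with a library left out was not counted. Scaling to the B-cell markers also gave 0 members lower against MS8815N and against EPZ-6438, where 171 of 17467 genes were lower in each. It turned the sign of all 15 members below 0 as deposited, among them PSMB10 (0.89), PSME1 (1.13), PSME2 (0.81), PSMA8 (0.65), PSMG1 (0.29) and PSME3 (0.68), where the median of all genes was 1.11. The cause of these changes was not tested. In the comparisons of EPZ-6438 and MS8815N with DMSO and with each other, 0 members were called under each alternative run. PSMB9 fell below the level filter in all 6 comparisons when the lower 50% of genes were removed, so it has no value there. Quantile normalisation of the ratios and of the sets against the core was chosen after seeing the data. It gave log2 changes of 0.26 (MS8815), 0.44 (EPZ-6438) and 0.27 (MS8815N) for PSMB8/PSMB5, of 1.15, 0.76 and 0.64 for PSMB9/PSMB6, and of -1.12 for PSMB10/PSMB7 with MS8815, and the cause was not tested.

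Replicate numbers are shared between groups, but deviations of same-numbered libraries did not correlate (-0.01, -0.06 and 0.08 in the 3 tables), and 2 pairs cannot show pairing. With a replicate block, 28 members were higher and 10 lower with MS8815 against DMSO, 0 with EPZ-6438 or MS8815N, and 32 and 10 in both pairs with MS8815. The MS8815 libraries had under 50% of the depth of most others, and PSMB9, with 26.0 to 53.2 normalised counts in DMSO, is the member whose fold change is least precise.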
